A study of Mus musculus with 2 samples.

Results

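The 9 genes described are the Hedgehog ligands Shh, Ihh and Dhh, the receptor Ptch1, the transducer Smo, the transcription factors Gli1, Gli2 and Gli3, and the ligand-binding inhibitor Hhip. They were chosen by symbol, whatever their level, and all 9 were found among the 43346 Ensembl genes quantified. The study measured polyadenylated RNA of more than 200 nucleotides in urinary bladder from adult mice of strain C57BL/6J aged 8 weeks, depleted of ribosomal RNA and sequenced as stranded paired-end libraries. There was 1 group of 2 libraries, replicate 1 and replicate 2, made from littermates of mixed sex with no treatment named. The libraries had separate biosample entries but named the same donor entry, and the labels used here did not give the number of animals in each, so every SD is the spread of 2 samples and some of it may be technical. With no second condition there is no contrast. Levels are given in TPM (an estimated transcript abundance that allows for transcript length and library size) as the mean ± SD with n = 2. An exact test, such as a rank test, cannot reach the usual threshold with 2 libraries, and no p-value was computed.

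Hedgehog ligands are secreted, lipid-modified proteins. In their absence Ptch1 holds Smo inactive, and when ligand binds Ptch1, Smo acts at the primary cilium to favour the activator over the repressor forms of the Gli factors. Ptch1, Gli1 and Hhip are themselves targets of the pathway, and in the bladder basal urothelial cells are known to make Shh while stromal cells of the underlying wall respond to it.

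The 3 ligand genes are close relatives, and the stretch below, the most similar 90-base coding window found in the search, shows how far their RNA can still be told apart. Each lies in the coding part of exon 2 on the minus strand of mm10, Shh at chr5:28461469-28461558, Ihh at chr1:74948451-74948540 and Dhh at chr15:98894960-98895049, and is printed 5′ to 3′ from GENCODE M21 transcripts. Capitals mark positions at which the 3 genes do not all share a base.
Shh: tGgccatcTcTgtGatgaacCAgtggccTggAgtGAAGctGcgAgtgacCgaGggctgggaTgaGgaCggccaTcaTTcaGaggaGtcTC
Ihh: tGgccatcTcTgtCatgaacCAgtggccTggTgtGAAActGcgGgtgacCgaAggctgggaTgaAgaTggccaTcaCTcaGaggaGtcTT
Dhh: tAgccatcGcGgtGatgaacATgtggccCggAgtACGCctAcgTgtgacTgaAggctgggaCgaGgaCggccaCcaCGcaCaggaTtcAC
All 3 genes shared 64 of these 90 bases, and Ihh and Dhh matched Shh at 81 and 69 of them. Over the whole transcripts the longest run of identical bases was 17 nucleotides between Shh and Ihh, 17 between Shh and Dhh and 16 between Ihh and Dhh. No pair shared a run of 31 bases.

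Shh was the highest of the 9 genes. Shh (ENSMUSG00000002633.3, chr5:28456815-28467256, minus strand) was at 50.71 TPM in replicate 1 and 56.47 in replicate 2, from 9736 and 11917 expected counts (estimated fragments). Its mean of 53.6 ± 4.07 TPM ranked 2203 among 21474 protein-coding genes, whose median was 4.58 TPM. In a whole tissue a level cannot tell fewer expressing cells from less RNA per cell, which holds for every value here. Dhh, the ligand best known from Schwann cells and gonads (ENSMUSG00000023000.4, chr15:98891152-98898540, minus strand), was at 1.42 TPM in replicate 1 (237 counts, exact Poisson 95% interval 1.24 to 1.61) and 2.17 in replicate 2 (398 counts, 1.96 to 2.39). These counting intervals did not overlap, so the 2 libraries differed in Dhh by more than counting error. Ihh, the ligand best known from growing cartilage and gut (ENSMUSG00000006538.10, chr1:74945315-74951672, minus strand), was at 0.11 TPM (20 counts, 0.0672 to 0.170) and 0.15 TPM (27 counts, 0.0989 to 0.218). Ihh was the only member under 1 TPM, and its libraries overlapped within counting error. These intervals cover counting error only.

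Of the summed TPM of the 3 ligands, Shh held 97.1% in replicate 1 and 96.1% in replicate 2 (96.6% ± 0.72), Dhh 3.20% ± 0.69 and Ihh 0.233% ± 0.032. On the log2 scale, Shh exceeded Dhh by 4.93 ± 0.32 and Ihh by 8.70 ± 0.21. Both gaps were far larger than the spread between libraries.

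Reads that cross splice junctions gave a second view of the ligands, since each ligand gene has 2 introns that such reads span. The authors' mm9 junction table sums the libraries, so these counts carry no SD. Across its introns Shh had 1541 and 1407 reads, Dhh 51 and 45, and Ihh 3 and 0. The order was that of the TPM values. Dhh needs this view because Rhebl1, a small GTPase gene on the same strand at 7.03 ± 1.07 TPM, overlaps 3389 bases of the Dhh gene, and how the counting divided shared reads is not known. Antisense to Shh, 9530036O11Rik (1.48 ± 0.26 TPM) covered 8983 bases of the gene, and the lincRNA Gm26894 (14.1 ± 2.73 TPM) overlapped 883 bases. The libraries were stranded per the labels, but whether strand was used in counting is not given in the sources used here.

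Ptch1 and Smo stood at nearly the same level. Ptch1, the membrane receptor that represses Smo (ENSMUSG00000021466.7, chr13:63508328-63573598, minus strand), was at 29.37 TPM in replicate 1 and 22.47 in replicate 2, from 15305 and 12631 counts, a mean of 25.9 ± 4.88 TPM. Smo, the membrane transducer (ENSMUSG00000001761.6, chr6:29735503-29761365, plus strand), was at 28.89 and 22.28 TPM, from 7965 and 6764 counts, a mean of 25.6 ± 4.67 TPM. Both genes were lower in replicate 2, by similar amounts. Their log2 ratio was 0.02 in replicate 1 and 0.01 in replicate 2, and the 95% counting interval of the TPM ratio included equality in each library (0.989 to 1.04 and 0.979 to 1.04). The ratio depended on how the genes were quantified, with Ptch1 above Smo by 0.88 on the log2 scale in the authors' mm9 RPKM values (read counts scaled by gene length and library size) and below it by 0.24 when only the leading coding transcript of each gene was counted.

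Gli1 led the 3 Gli factors. Gli1, a transcriptional activator whose own expression is widely used as a readout of Hedgehog signalling (ENSMUSG00000025407.6, chr10:127329882-127341974, minus strand), was at 21.01 TPM in replicate 1 and 18.55 in replicate 2 (19.8 ± 1.74), from 5608 and 5452 counts. Gli2, the main activator downstream of Smo (ENSMUSG00000048402.10, chr1:118834132-119053619, minus strand), was at 7.60 and 3.44 TPM (5.52 ± 2.94), from 3616 and 1780 counts. Gli3, processed largely to a repressor when ligand is absent (ENSMUSG00000021318.11, chr13:15463235-15730026, plus strand), was at 5.64 and 3.81 TPM (4.73 ± 1.29), from 3341 and 2452 counts. Gli2 was above Gli3 in replicate 1 and below it in replicate 2. RNA levels carry no information on the processed forms of the proteins.

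Of the summed TPM of the Gli genes, Gli1 held 61.3% in replicate 1 and 71.9% in replicate 2, Gli2 22.2% and 13.3%, and Gli3 16.5% and 14.8%. Gli1 exceeded Gli2 by 1.95 ± 0.68 and Gli3 by 2.09 ± 0.27 on the log2 scale, more than the spread in each case. Gli2 and Gli3 differed by 0.14 ± 0.41 and could not be ordered. The longest identical run was 25 nucleotides between Gli2 and Gli3, 23 between Gli1 and Gli2 and 14 between Gli1 and Gli3.

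Hhip, a membrane-anchored and secreted protein that binds Hedgehog ligands and limits their range (ENSMUSG00000064325.3, chr8:79965851-80058006, minus strand), was at 12.83 and 13.03 TPM, a mean of 12.9 ± 0.14, from 2229 and 2173 counts. Among the response genes this placed Hhip below Ptch1 by 0.99 ± 0.29 on the log2 scale and below Gli1 by 0.61 ± 0.14. Gli1 in turn was below Ptch1 by 0.38 ± 0.15 (log2 ratio of Gli1 to Ptch1 -0.38), a gap that was wider in the mm9 RPKM values (-1.27) and narrower with the leading coding transcripts alone (-0.13). Much of the Hhip level came from a short non-coding transcript, described with the transcripts, and the coding transcript alone was at 4.94 TPM, below the leading coding transcript of Ptch1 by 2.13 on the log2 scale.

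From highest to lowest the order was Shh, Ptch1, Smo, Gli1, Hhip, Gli2, Gli3, Dhh and Ihh. Of the 8 neighbouring pairs, 7 kept their order in both libraries with a mean log2 ratio above its SD, although Ptch1 and Smo, counted among the 7, lay within counting error of each other. The pair that did not was Gli2 and Gli3. Of the 9 genes, 8 reached 1 TPM in both libraries, beside 12999 of 21474 protein-coding genes (60.5%). The mean RPKM of the deposited mm9 table gave the same order, from 9.30 for Shh and 7.94 for Ptch1 to 0.311 for Dhh and 0.0221 for Ihh. With the leading coding transcript of each gene alone, 5 of the 8 neighbouring pairs kept this order by the same rule. In that case Smo (25.6 TPM) lay above Ptch1 (21.7 TPM), and did so in both libraries, so this pair was reversed. Gli2 (mean 5.26 TPM) and Hhip (mean 4.94 TPM) could not be ordered. Gli2 was at 7.26 TPM in replicate 1 and 3.25 in replicate 2, and Hhip at 5.40 and 4.48.

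**Figure D1:**
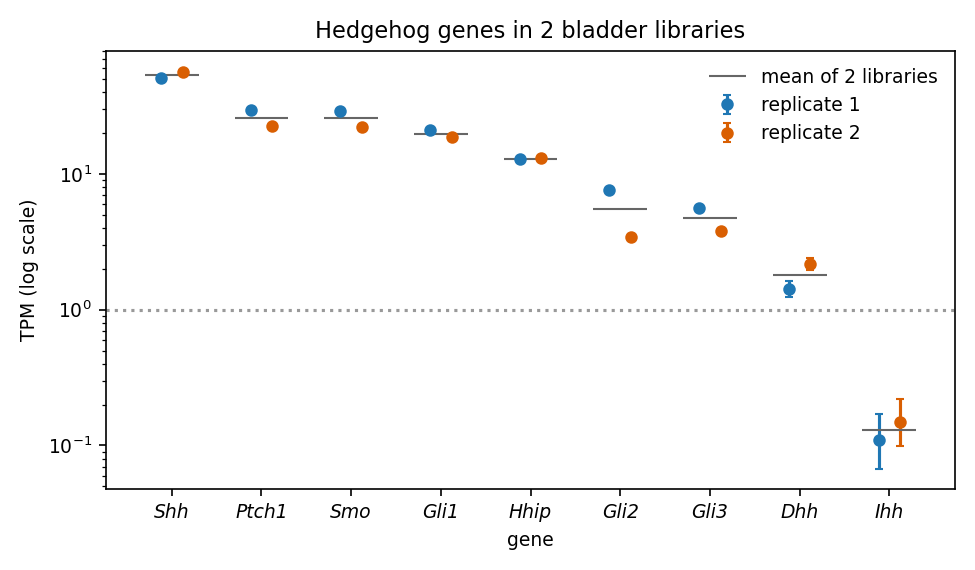
TPM of the 9 Hedgehog genes (log axis) in replicate 1 and replicate 2, with exact Poisson 95% counting intervals (smaller than the point for most genes), the mean as a grey line and 1 TPM as a dotted line. Shh lies highest at 50.71 and 56.47 TPM, the points of Gli2 lie farthest apart among the genes above 1 TPM, and Ihh is the only gene below 1 TPM.

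Most members were represented by 1 main transcript. Shh, Dhh, Smo and Gli1 each had 1 quantified transcript. Gli2-201 held 94.9% ± 0.65 of Gli2 TPM and Gli3-201 94.2% ± 1.4 of Gli3 TPM. Ihh-201 held 100% and 86.7% of a gene with few counts. Ptch1 and Hhip, both response genes, were less simple.

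The estimate and the junction reads named different leading forms of Ptch1. Ptch1-202, a coding transcript of 7002 nucleotides, was at 24.34 and 19.08 TPM and held 83.9% ± 1.4 of Ptch1 TPM, while Ptch1-201 held 9.4% ± 1.5 and Ptch1-204, annotated as a target of nonsense-mediated decay, 3.4% ± 1.3. The last pair fell below the 10% share set for naming transcripts and were added after their values were seen. These 3 forms splice different first exons of 78, 374 and 369 nucleotides to the same second exon, on the minus strand of chromosome 13. The 30 bases across each junction are printed 5′ to 3′ from GENCODE M21 transcripts, with the end of the first exon in capitals and the shared start of exon 2 (chr13:63563801-63563815) in lower case.
Ptch1-201 (first exon ends at chr13:63565362-63565376): GAGCAGATTTCCAAGgggaaggctactggc
Ptch1-202 (first exon ends at chr13:63564458-63564472): CCGAGCACAAATAGTgggaaggctactggc
Ptch1-204 (first exon ends at chr13:63573092-63573106): CTGAGGCCGGCTATGgggaaggctactggc
Of 161 junction reads from an annotated first exon into exon 2, 109 came from that of Ptch1-201 (67.7%, exact binomial 95% interval 59.9% to 74.8%). The first exon of Ptch1-204 gave 32 reads (19.9%, 14.0% to 26.9%) and that of Ptch1-202 only 19 (11.8%, 7.26% to 17.8%). Ptch1-202 therefore held the largest estimated share, while its first exon had fewer junction reads than either alternative. Its junction carried no annotated tag in the mm9 table, and it was matched between builds by the length of its intron, 642 bases.

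At the other end of the gene, Ptch1-202 and Ptch1-206 splice out an intron of 419 bases (chr13:63511113-63511531) that lies 4 bases beyond the coding sequence of Ptch1-201, which keeps it. This intron had 230 junction reads, beside 860 across the intron before it. The 230 reads and the 19 from the Ptch1-202 first exon cannot be compared directly, since junction reads of Ptch1 rose toward the 3′ end. At its own end each was the smaller part, beside 860 reads for the 230 and of 161 reads for the 19. The share of Ptch1-202 is assigned by the deposited estimate from all reads of the gene, and the part of each end in it was not tested.

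**Figure D2:**
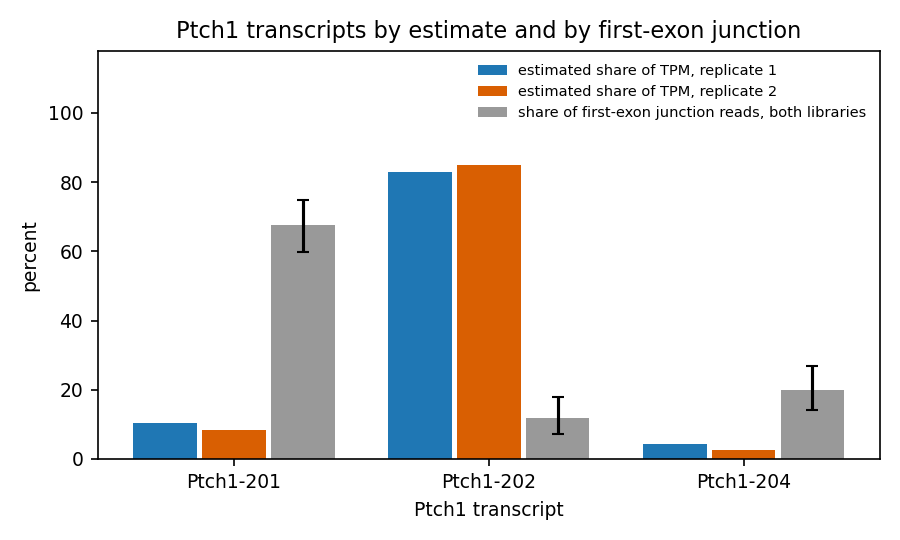
Percent of Ptch1 TPM assigned to 3 Ptch1 transcripts in each library, beside the percent of first-exon junction reads summed over both libraries (grey bars, exact binomial 95% interval). Ptch1-202 has the tallest estimated bars, with a mean of 83.9%, and the lowest grey bar, at 11.8%.

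Hhip was split between the coding Hhip-201 and Hhip-202, an annotated non-coding transcript quantified at 909 nucleotides. Hhip-202 was at 7.43 and 8.55 TPM and held 57.9% and 65.6% of Hhip TPM (61.8% ± 5.4), but from only 406 and 507 expected counts. Hhip-201, quantified at 4582 nucleotides, was at 5.40 and 4.48 TPM from 1823 and 1666 counts. The short form held the larger share of TPM and the long form the larger share of counts in both libraries. The forms part after a shared exon on the minus strand of chromosome 8 (chr8:79972398-79972412), printed in lower case from GENCODE M21, with the last exon of Hhip-202 (chr8:79966414-79966428) or the read-through of Hhip-201 (chr8:79972383-79972397) in capitals.
Hhip-202: gagtgaccagggcagCCCCCCATGTATTCA
Hhip-201: gagtgaccagggcagGTATCCTTGATCAGA
The junction specific to Hhip-202 had 96 reads, beside 159 reads across the intron that leads into the shared exon. Hhip-202 was therefore seen in spliced reads, while Hhip-201, whose last exon runs on from the shared bases, has no junction of its own there. The quantified Hhip-201 was also shorter than its 9074 nucleotides in GENCODE M21, as were the quantified transcripts of Dhh (2363 against 4242), Gli1 (3665 against 4057) and Shh (2692 against 2847). Levels per length of these genes depend on which end is used.

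Introns were counted along 1 annotated mm9 transcript per gene, leaving out those found only in other transcripts. Of the 90 introns of these 9 transcripts, 88 had at least 10 junction reads, and the remaining 2 were the introns of Ihh. Smo had a median of 740 reads over 11 introns, Ptch1 451 over 22, Gli1 385 over 12, Hhip 130 over 12, Gli2 73 over 13 and Gli3 71 over 14. The reads were not even along each gene. In Gli1 the median was 242 reads in the introns nearer the 5′ end and 773 in those nearer the 3′ end, a ratio of 3.19. The same ratio was 1.65 in Ptch1, 1.63 in Gli2, 1.49 in Hhip, 1.17 in Smo and 0.958 in Gli3. First introns were the least covered of their gene in Ptch1 (109 reads), Gli2 (45 reads) and Gli3 (14 reads). Those of Gli1 (183 reads) and Smo (544 reads) were among the lowest, and that of Hhip (125 reads) was near its median. The 109 reads of Ptch1 come from the first exon of Ptch1-201 alone, beside 161 from all annotated first exons. At the first intron of Gli3 a second annotated start, that of Gli3-202, had a further 18 reads.

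**Figure D3:**
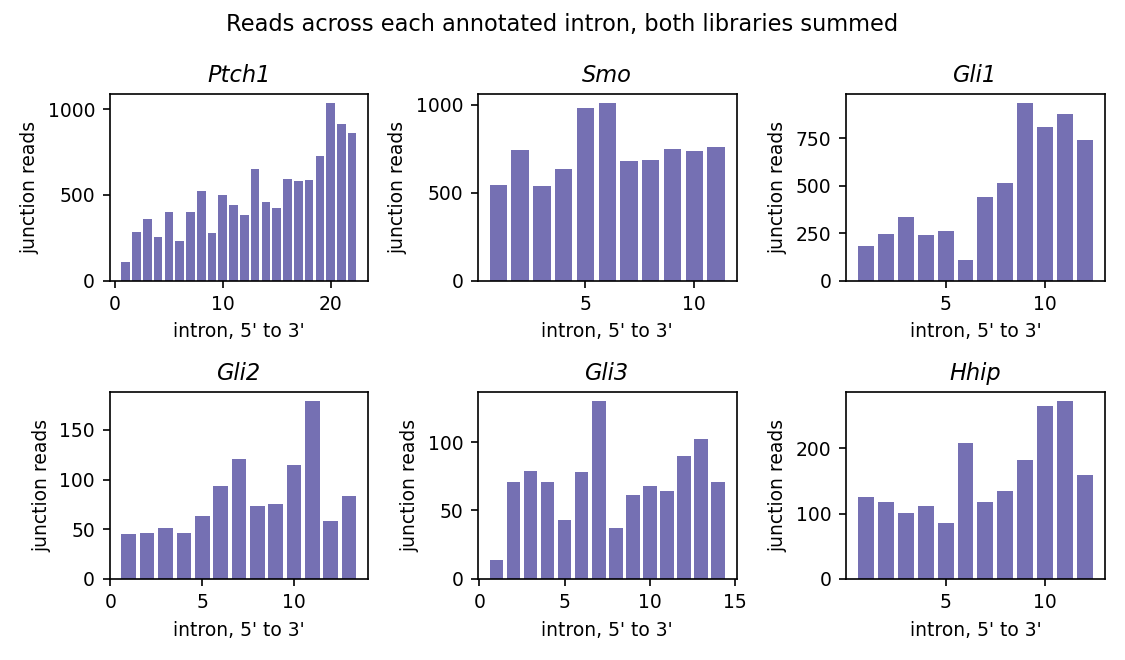
Junction reads, summed over both libraries, across each annotated intron of Ptch1, Smo, Gli1, Gli2, Gli3 and Hhip from 5′ to 3′ (linear axes with a different scale in each panel). Bars grow toward the 3′ end in Gli1 and Ptch1, while Gli3 has its lowest bar, 14 reads, at the first intron.

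Between the libraries, Gli2 was the only member to differ by more than 2-fold. The difference was taken as the log2 ratio of TPM + 0.5, replicate 2 over replicate 1, which understates ratios of low genes. Of the 8 members averaging at least 1 TPM, 1 passed 2-fold in either direction, beside 1.58% of 14533 genes at that level. Gli2 stood at -1.04, Gli3 at -0.51, Ptch1 at -0.38, Smo at -0.37 and Gli1 at -0.18. Hhip stood at 0.02, Shh at 0.15 and Dhh at 0.48, and the median of all 14533 genes was 0.08. The receptor, the transducer and the Gli factors were thus lower in replicate 2, and Shh and Dhh were higher. Ihh was below the level set for this comparison. Against the library totals on genes, the ratio of Gli2 counts was 0.466 (95% counting interval 0.440 to 0.493) and that of Ptch1 counts 0.781 (0.762 to 0.799), so counting error was small beside these differences. For Hhip the ratio of counts was 0.922 (0.869 to 0.979), and the coding Hhip-201 went from 5.40 to 4.48 TPM. By these measures Hhip too was lower in replicate 2, so its value of 0.02 depended on the measure.

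The same libraries differed with transcript length. Across the 14533 genes, which are not independent replicates, the log2 ratio had a Spearman correlation of -0.35 with effective length, and the 1443 genes longer than 5 kb had a median of -0.14. Gli2, Gli3 and Ptch1 are among the long transcripts. Once a smooth trend on length was removed, Gli2 moved to -0.83 and no longer passed 2-fold, while Gli3 moved to -0.27, Ptch1 to -0.16 and Smo to -0.27. With a pseudocount of 1 TPM Gli2 was at -0.95, also short of 2-fold. In every other setting tried Gli2 still passed 2-fold, at -1.20 with normalization factors of edgeR or of DESeq2 and at -1.12 with a pseudocount of 0.1 TPM.

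**Figure D4:**
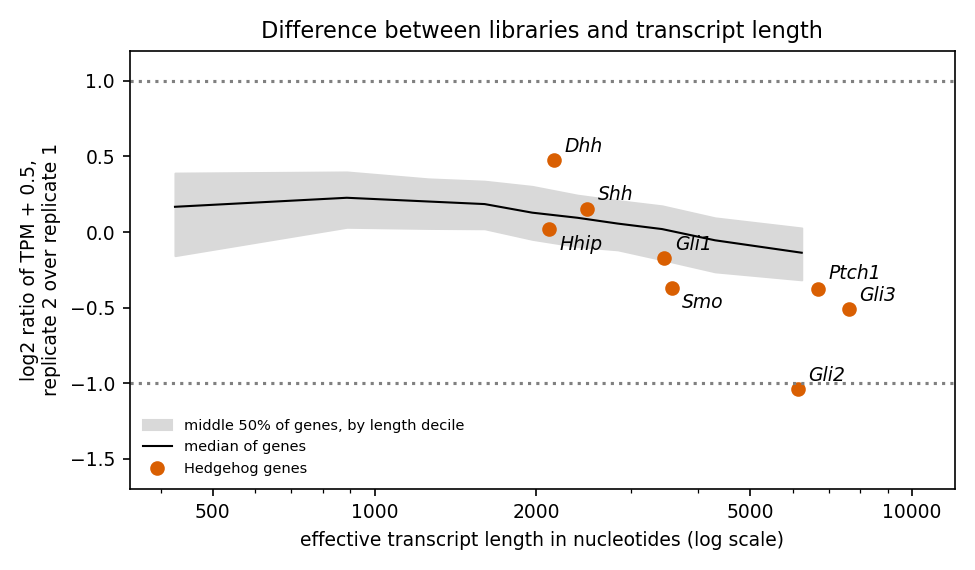
Log2 ratio of TPM + 0.5 between replicate 2 and replicate 1 against effective transcript length (log axis) for the 8 Hedgehog genes averaging at least 1 TPM, over the median and middle 50% of all genes by length decile (dotted lines, 2-fold). Gli2, at -1.04, lies farthest below the band, Smo lies below it by less, Ptch1 and Gli3 lie beyond its long end and below its last lower edge, Dhh lies above it, and Shh, Gli1 and Hhip lie inside it.

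Markers of the cell types of the bladder wall were read in the same libraries. All 7 markers of superficial and intermediate urothelium reached 1 TPM in both libraries, led by the uroplakin Upk1a (1977 TPM) and Psca (983 TPM), and their summed TPM went from 4717 in replicate 1 to 6771 in replicate 2. Of 7 basal urothelium markers, 6 reached it, led by the keratins Krt15 (471 TPM) and Krt5 (364 TPM), with Krt14 at 0.65 and 1.25 TPM; their sum was 940 and 934 TPM. The smooth muscle sum, led by Acta2 and Tagln, went from 27931 to 25310 TPM, and the fibroblast sum, led by Dcn and Col3a1, was 5589 and 5602 TPM, each with 7 of 7 markers. Within the fibroblast list members moved apart, with Col1a1 at -0.58 and Pdgfra at -0.59 on the log2 scale of replicate 2 over replicate 1, against 0.42 for Lum and 0.45 for Pi16, genes named here after their values were seen. The endothelial sum, led by Egfl7 and Pecam1, was 251 and 280 TPM with 7 of 7 markers. Egfl7 was at 108 and 156 TPM, while 5 of the 7 were lower in replicate 2 and the median log2 ratio of the list was -0.19. These lists fit the tissue label.

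Schwann cell and glial markers were also read. Of the 6 in the list, 4 reached 1 TPM in both libraries, led by the myelin gene Mbp (25.5 TPM), while Egr2 (0.86 TPM) and Gfap (0.40 TPM) did not. Their sum was 43.5 TPM in replicate 1 and 46.8 in replicate 2. Mbp, the largest part of it, was at 25.86 and 25.22 TPM, while every other marker of this list was higher in replicate 2. Over the 4 markers averaging at least 1 TPM the median log2 ratio, replicate 2 over replicate 1, was 0.18. Adipocyte markers, led by Fabp4 and Cfd, went from 954 to 1901 TPM, and 4 of these 6 passed 2-fold. The part of cell composition in the library differences of Dhh, Gli2 and the other members was not tested.

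Beyond the 9 members, 63 of 70 measured genes of 6 pathway lists reached 1 TPM in both libraries, beside 60.5% of protein-coding genes. The median over all 70 was 13.3 TPM, beside 4.58 TPM over all protein-coding genes. None of the 63 passed 2-fold between libraries, beside 1.58% of all genes at that level, a share too small for a count of 0 to set these lists apart. The lists are described by their counts and levels alone.

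Most listed genes that release, process or receive ligand were detected. In ligand release and processing 10 of 11 genes reached 1 TPM, with a median of 5.96 TPM. The glypican Gpc3, which binds Hedgehog ligand at the cell surface, was at 38.5 TPM, Sel1l, a component of degradation at the endoplasmic reticulum, at 37.5 and Gpc6 at 20.1, while Gpc5 had 3 and 0 counts. Lower in this list were Scube2 (11.44 and 5.55 TPM), Scube1 (7.82 and 4.10 TPM), Disp1 (mean 4.70 TPM) and Hhat (mean 2.10 TPM). These 4 were named after their values were seen. Of 4 co-receptors and related receptors 3 reached it. The co-receptor Gas1 was at 111 ± 0.95 TPM, Boc at 19.5 ± 2.4 and Cdon at 12.2 ± 1.4, so that Gas1 lay above Ptch1 itself. Lrp2, an endocytic receptor of absorptive epithelia, was at 0.14 and 0.16 TPM.

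All 14 transducers and kinases measured reached 1 TPM, led by Prkar1a (132 TPM) and Prkacb (67.6 TPM) of protein kinase A and by the casein kinase Csnk1a1 (115 TPM), and both of these kinases phosphorylate Gli proteins. Sufu, which restrains the Gli factors, was at 12.4 ± 1.5 TPM, and the ciliary kinesin Kif7 at 3.14 ± 0.15 TPM; these genes were added for their role, after their values were seen. All 8 genes of Gli turnover reached it, led by the cullins Cul1 (85.4 TPM) and Cul3 (49.6 TPM) and the substrate adaptor Spop (65.9 TPM). All 13 primary cilium genes did, led by Evc (19.4 TPM) and Evc2 (16.9 TPM), partners of Smo at the base of the cilium, and the phosphatase Inpp5e (18.3 TPM). These are widely used genes, and their levels are not specific to Hedgehog signalling.

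Of 20 genes reported elsewhere as Hedgehog targets, 15 reached 1 TPM in both libraries, with a median of 19.2 TPM. The transcription factors Tbx2 (95.4 TPM) and Foxf1 (80.3 TPM) and the growth factor Bmp4 (64.7 TPM), all known from bladder or gut mesenchyme, were highest. The cell cycle genes Mycn (0.55 TPM) and Stil (0.35 TPM) stayed below 1 TPM, and Spp1 was at 1.14 and 0.74 TPM. Nkx2-1 and Nkx2-2, targets in the ventral neural tube and lung, had 0 counts, for which 3 counts allow up to 0.0302 CPM (counts scaled to the library total on genes) in replicate 1 and 0.0286 in replicate 2. Detection of a target gene does not show that Hedgehog signalling sets its level here.

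**Figure D5:**
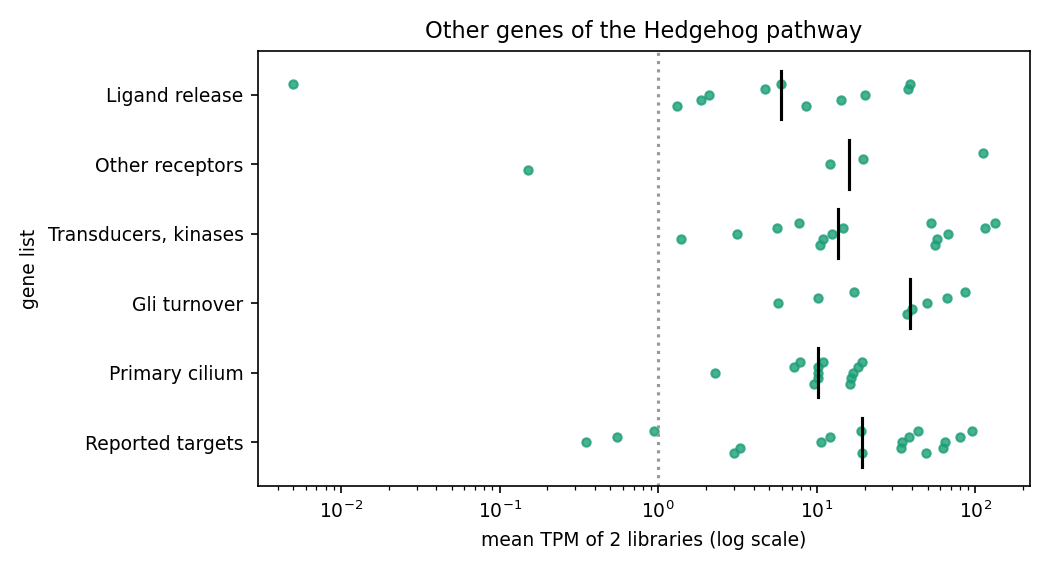
Mean TPM (log axis) of each measured gene of 6 lists of Hedgehog pathway genes outside the 9 members, with the list median as a black bar and 1 TPM as a dotted line; Nkx2-1 and Nkx2-2, at 0, cannot be drawn. Gli turnover has the highest median, 38.6 TPM, ligand release the lowest, 5.96 TPM, and every transducer, turnover and cilium gene lies above 1 TPM.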

How the data were processed

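Polyadenylated RNA was measured in 2 bladder libraries with 104610979 and 111741334 total expected counts, of which 99367453 and 105057347 lay on 43346 Ensembl genes; other rows (5.01% and 5.98%) were left out. The authors deposited expected counts and TPM per gene and transcript on mm10, per the file headers and labels. They also deposited, on mm9, RPKM per gene and junction read counts. The RPKM columns could not be tied to replicates, so their mean was used. The aligner and counting tool were not given in the sources used here. Of the genes, 42462 matched GENCODE M21, the source of symbols, positions and transcript sequences.

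Means, SDs, log2 ratios and exact Poisson or binomial intervals were computed with Python 3.11.15, pandas 2.3.3, scipy 1.17.1 and statsmodels 0.14.6. Expected counts were rounded to whole numbers only for normalization factors (edgeR 4.0.16 and DESeq2 1.42.0 in R 4.3.3), used as alternatives. Ratios between libraries used a pseudocount of 0.5 TPM and genes averaging at least 1 TPM; the length trend was a lowess fit with fraction 0.3. Of the steps, the 2-fold rule alone was tried on simulated data. No p-value was computed. The text names the 9 members, the 3 highest genes of each pathway list, the 2 highest of each marker list, list genes under 1 TPM in both libraries and transcripts with a share of at least 10%. Alternatives were the TPM estimate, its denominator, RPKM, pseudocount, filter, normalization, detection level, read minimum and each library left out; 2 more, the leading coding transcript alone and junction reads into Ptch1 exon 2, were chosen after seeing the data. Some list genes are not reported here and were left out of the list counts and sums. The members and lists were chosen with earlier results of these data known.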

Additional observations from a re-analysis of the deposited data

How the results depend on the processing

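No paired analysis was possible because the series has 1 group. The levels of the 9 genes differed by a factor common to all when TPM was rescaled without mitochondrial genes (Shh 68.7, Ptch1 33.3 and Hhip 16.6 TPM), which leaves their order. On the log2 scale, the ratio of Ptch1 to Smo was 0.030 with posterior mean TPM, 0.88 with the mm9 RPKM values and -0.24, a reversal, with the leading coding transcript alone. Ptch1 over Hhip was 2.30 with RPKM and 2.13 with the coding transcript alone, Gli1 over Ptch1 -1.27 and -0.13, and Shh over Ihh 8.48 with posterior mean TPM. The coding-transcript values leave out Hhip-202 and the other Ptch1 transcripts by construction; the cause was not tested for the others. No member passed 2-fold with a pseudocount of 1 TPM or with the length trend removed (0 in each case), and without the filter on low values 0.704% of all genes passed. In the other settings Gli2 was the only member to pass. With 1 library left out there is no SD, so only the order of neighbouring pairs could be read. It was kept by 7 pairs without replicate 1 and by 8 without replicate 2. With the leading coding transcript alone 5 pairs kept the order by the full rule, and Ptch1 and Smo were reversed in both libraries. By posterior mean TPM the share of Ihh-201 was 81.1%, of Gli2-201 89.97% and of Gli3-201 92.7%. Depth limits Ihh, whose 20 and 27 counts leave wide intervals, and the first-exon shares of Ptch1, which rest on 161 reads.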

Other observations

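The first intron of Smo held a dense set of unannotated junctions. In the junctions the authors listed on mm9, 96 unannotated ones of at least 10 reads each, 1960 reads in all and at most 193 in any, lay within chr6:29697680-29699090 (mm9) on the strand of Smo. The annotated introns of Smo had a median of 740 reads. On mm10, GENCODE M21 places a processed pseudogene, Gm13717, inside the Smo gene (chr6:29750761-29751125). It was quantified at 1.48 TPM in replicate 1 and 1.84 in replicate 2, from only 19 and 24 expected counts. Whether it overlaps the junctions was not examined, since the builds differ.

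Within Ptch1, unannotated junctions included introns of 3073 bases with 25 reads, 460 bases with 15 reads and 1624 bases with 11 reads, all on the strand of the gene. An antisense junction at Shh, with an intron of 1237 bases, had 14 reads, as did a sense junction there with an intron of 2511 bases.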
